A study of Homo sapiens with 8 samples.

Results

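The unfolded protein and amino acid stress genes are 37 genes that encode chaperones and folding enzymes of the endoplasmic reticulum (ER), its degradation and translocation machinery, the sensors of misfolded protein, the factors of the PERK-ATF4 pathway, and enzymes and transporters of amino acid supply. A probe belonged to the group when the platform annotation gave it the symbol of a member. In this way 44 probes of 36 members were found among 47322 probes, and HERPUD1 had no named probe here. Of these, 33 members had a probe above background on both arrays of some group (of 4) and were tested among 12719 genes. PDIA3 and CHAC1 were above background on no array. ERN1, which encodes the sensor IRE1, was above background on no BC3 DMSO array and on 1 of 2 arrays in each other group, so these members have no test.

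RNA was measured in BC3 and BCBL1, a pair of established human cell lines grown from primary effusion lymphoma, a B-lineage tumour of body cavities with plasma cell features in which the tumour cells carry Kaposi's sarcoma-associated herpesvirus. Each line was cultured in the same medium with 5 µM lenalidomide, a cereblon-binding immunomodulatory drug, or with its solvent DMSO. Each of the 4 combinations of line and treatment was put on 2 Illumina 1-colour bead arrays, which the series text calls technical replicates, so that p-values measure the spread between arrays and not between cultures. How long the cells were exposed is not stated in the sources used. Each condition rests on 1 line at a time, and a difference between BC3 and BCBL1 is a difference between 2 lines, with no others behind it. Array medians lay between 137.3 and 153 intensity units, and 47.3% to 49.4% of probes were above background on an array. Values below are log2 intensities after background correction and quantile normalization, on which the correction offset makes the differences of dim genes too small. The standard error (SE) of a difference between 2 groups of 2 arrays was 0.11 to 0.17 for the members, with a median of 0.13.

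The unfolded protein response starts from sensors in the ER membrane. IRE1 splices the XBP1 mRNA, ATF6 is cut to release a transcription factor, and PERK (EIF2AK3) phosphorylates the initiation factor eIF2α, which slows translation in general but favours that of ATF4. Amino acid shortage reaches eIF2α and ATF4 through another kinase, so amino acid genes and ER stress genes share the ATF4 route. Plasma cells keep much of this machinery at a high level because they fold and export large amounts of immunoglobulin. In bulk RNA, fewer cells expressing a gene and less RNA per cell cannot be told apart.

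Promoter sequence shows which members carry the letters that these factors are known to bind. RefSeq windows of GRCh38.p14, from 250 bases before to 50 bases after a transcript start, were available for 34 of the 37 members (47 windows); PDIA3, SLC7A11 and SHMT2 had none in the table used. The ER stress response element (ERSE), the site of ATF6 and XBP1 together with NF-Y, was searched as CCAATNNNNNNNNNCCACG on both strands, and occurred in 0.0769% of all 35116 windows. The ERSE of the members below is shown with its 2 fixed parts in capitals and 10 bases on each side, on the strand of the gene; where the site lies on the other strand the parts read CGTGG first and ATTGG last.
HSPA5 (chr9:125241381-125241419, minus strand): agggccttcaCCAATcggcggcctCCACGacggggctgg
HSP90B1 (chr12:103930311-103930349, plus strand): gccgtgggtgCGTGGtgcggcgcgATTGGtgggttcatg
CALR (chr19:12938374-12938412, plus strand): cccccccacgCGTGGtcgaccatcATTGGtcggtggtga
CANX (chr5:179698768-179698806, plus strand): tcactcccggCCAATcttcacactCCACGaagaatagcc
PDIA6 (chr2:10812843-10812881, minus strand): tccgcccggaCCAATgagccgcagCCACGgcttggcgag
CRELD2 (chr22:49918544-49918582, plus strand): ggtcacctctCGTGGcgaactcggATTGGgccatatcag

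HSP90B1 held a second such site, and the CANX site was the same one seen from different transcript starts. The compact form, ERSE-II, was searched as ATTGG followed by 1 base of any kind and then CCACG, on both strands, and occurred in 0.0541% of windows. Its parts are in capitals below, and HYOU1 held 2 of them.
HYOU1 (chr11:119057264-119057294, minus strand): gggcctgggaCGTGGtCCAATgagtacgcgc
SDF2L1 (chr22:21642104-21642134, plus strand): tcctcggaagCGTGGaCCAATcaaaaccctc
HERPUD1 (chr16:56932015-56932045, plus strand): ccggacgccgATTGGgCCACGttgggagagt

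In all, 9 of the 34 members (26.5%) held an ERSE or an ERSE-II, against 0.161% of the 27305 genes with a window. Several members are textbook targets of ATF6 and are on the list for that reason, so the share describes the list and tests nothing. The XBP1 site TGACGTGG, on both strands in 0.729% of windows, was found in HYOU1 alone among the members, where it overlaps the farther ERSE-II. The site of ATF4 with a C/EBP partner (CARE) was searched as TGATGNAA on both strands, a short motif found in 3.62% of windows and in 4 of the 34 members (11.8%). Its fixed letters are in capitals in the stretches below, on the strand of the gene, so that a site on the other strand appears as its reverse complement.
ASNS (chr7:97872459-97872486, minus strand): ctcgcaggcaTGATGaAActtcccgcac
SLC3A2 (chr11:62881726-62881748, plus strand): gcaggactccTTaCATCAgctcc
CHAC1 (chr15:40953252-40953279, plus strand): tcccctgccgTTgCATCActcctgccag
HERPUD1 (chr16:56931956-56931983, plus strand): acgcggcgggTTgCATCAgcccgtgccc

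A match is a description of the letters, not of a bound site, and a window without a match says only that the letters are not there.

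**Figure D1:**
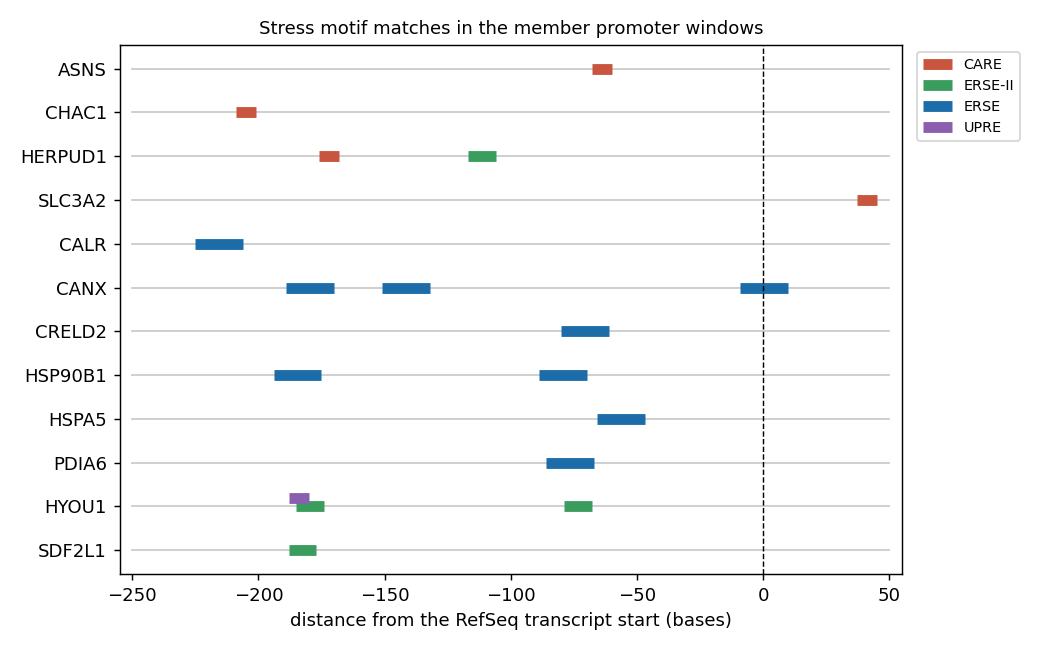
Positions of the motif matches in the promoter windows of 12 members, in bases from the RefSeq transcript start (dashed line at 0; negative values lie before the start). Blue bars are ERSE, green bars ERSE-II, red bars CARE and the purple bar the XBP1 site (UPRE); the 3 bars of CANX are 1 site seen from 3 transcript starts, and most ERSE and ERSE-II matches lie before the start.

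The first comparison asks what lenalidomide did to these genes in each line. DDIT4 rose in both lines and SLC7A5 fell in BC3, while the chaperone HSPA5, the factor ATF4 and its target ASNS did not pass the test in either line. In BC3, 2 of the 33 tested members rose and 1 fell at an adjusted p under 0.05. Among all 12719 genes 4.43% passed in BC3, 3.24% upward and 1.20% downward, so the share of members that passed (9.09%) rests on 3 genes. In BCBL1, 1 member rose and none fell by limma, 3 had an unadjusted p under 0.05, and 2.92% of all genes passed. The median log2 difference of the members was -0.05 in BC3 and 0.06 in BCBL1, and that of all genes -0.01 in both.

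DDIT4 encodes REDD1, an inhibitor of mTORC1 whose gene responds to ATF4 and also to hypoxia, glucocorticoids and DNA damage. Its log2 level was 10.67 and 10.74 on the BC3 DMSO arrays and 11.54 and 11.47 on the BC3 lenalidomide arrays. In BCBL1 it was 9.35 and 9.29 with DMSO and 10.62 and 10.58 with lenalidomide. Every lenalidomide array stood above every DMSO array of its line, and the treated BCBL1 arrays reached a level just below that of the untreated BC3 arrays. The rise was 0.80 ± 0.11 (SE) in BC3, or 1.74-fold (adjusted p = 0.00109), and 1.28 ± 0.11 in BCBL1, or 2.44-fold (adjusted p = 3.51e-05). The difference between these rises, 0.49 ± 0.16, did not pass the test (adjusted p = 0.304). With the 2 lines as the replicates, the rise was 1.04 ± 0.13, or 2.06-fold (adjusted p = 0.00344); DDIT4 was the only tested member called in that fit, in which 1.93% of all genes passed. That call was lost on the authors' log2 table (1.09, adjusted p = 0.254), with a background offset of 16 (1.07, adjusted p = 0.136) and without BCBL1 lenalidomide array a (1.03, adjusted p = 0.0597).

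The DDIT4 promoter window is shown because this gene carries the clearest response of the group; it held neither ERSE, ERSE-II, CARE nor the XBP1 site. The capitals mark the letters CGTGG, which read CCACG on the other strand, the part that ERSE and ERSE-II share. The window held 4 of these. At least 1 was held by 38.1% of all windows and by 31 of the 47 member windows (66%), and the share of windows with 4 was not counted. A window with an ERSE, an ERSE-II or the XBP1 site holds these letters by definition, and a gene can have several windows. The member share therefore describes the list and tests nothing.
DDIT4 (chr10:72273674-72273973, plus strand): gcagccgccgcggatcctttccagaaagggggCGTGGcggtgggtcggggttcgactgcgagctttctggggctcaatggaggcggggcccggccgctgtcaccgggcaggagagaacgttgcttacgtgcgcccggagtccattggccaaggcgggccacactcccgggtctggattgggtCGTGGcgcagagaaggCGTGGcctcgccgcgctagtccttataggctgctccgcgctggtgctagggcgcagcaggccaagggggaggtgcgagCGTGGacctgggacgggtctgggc

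SLC7A5 encodes LAT1, the transporter that brings leucine and other large neutral amino acids into the cell and whose RNA is raised by ATF4. Its log2 level on the BC3 arrays was 8.01 and 8.06 with DMSO and 7.20 and 7.28 with lenalidomide. On the BCBL1 arrays it was 9.74 and 9.68 with DMSO and 9.55 and 9.66 with lenalidomide. Both treated BC3 arrays lay below both untreated ones with a wide gap; in BCBL1 the groups did not overlap either, but the gap was narrow. SLC7A5 fell by 0.80 ± 0.11 in BC3, or 1.74-fold (adjusted p = 0.00123). In BCBL1 the difference was -0.10 ± 0.11 (adjusted p = 0.717). The difference between the lines, 0.70 ± 0.16, had the lowest adjusted p of the members in that test but did not pass (0.114). With the lines as replicates the difference was -0.45 ± 0.15 (adjusted p = 0.219). Its partner subunit SLC3A2, which anchors LAT1 in the membrane, differed by 0.09 in BC3 and 0.05 in BCBL1.

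**Figure D2:**
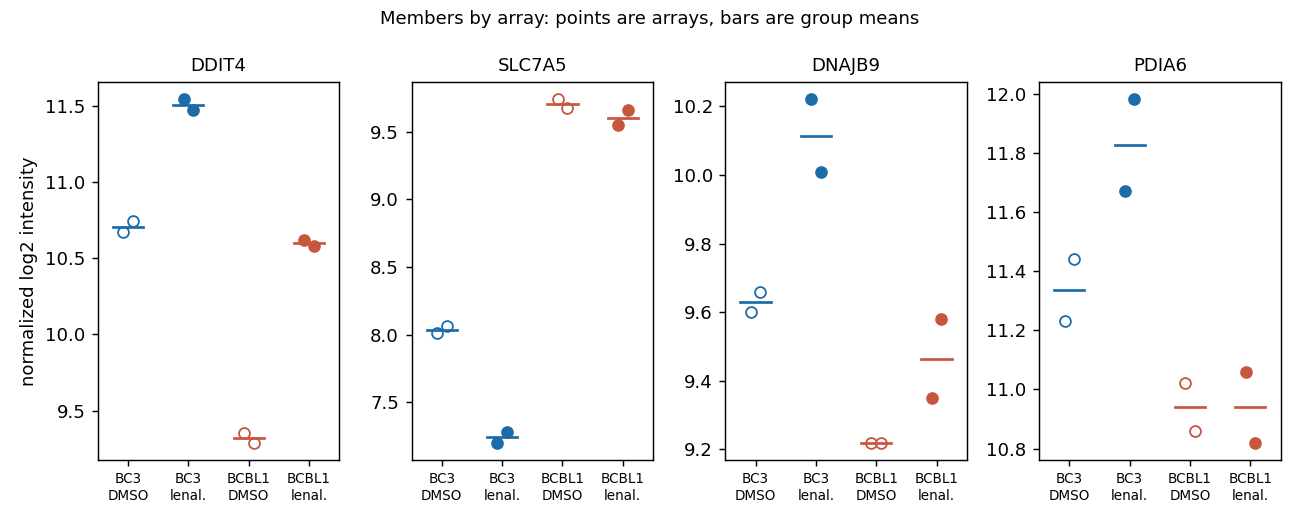
Log2 intensity of DDIT4, SLC7A5, DNAJB9 and PDIA6 on each of the 8 arrays (BC3 in blue, BCBL1 in red, open points DMSO, filled points lenalidomide, bars the mean of 2 arrays). DDIT4 rose from 10.67 and 10.74 to 11.54 and 11.47 in BC3 and from 9.35 and 9.29 to 10.62 and 10.58 in BCBL1, and SLC7A5 shows its wide gap between treatments in BC3.

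Among the ER chaperones and folding enzymes, 1 of 12 tested members rose in BC3 and 0 of 12 passed in BCBL1 by limma, where none had an unadjusted p under 0.05. DNAJB9, a co-chaperone of HSPA5 that restrains IRE1 and is a target of spliced XBP1, was the gene that rose. Its log2 level was 9.60 and 9.66 on the BC3 DMSO arrays against 10.22 and 10.01 on the lenalidomide arrays. The BCBL1 arrays gave 9.22 and 9.22 with DMSO and 9.35 and 9.58 with lenalidomide. Treated arrays were above untreated ones in both lines, by 0.49 ± 0.13 in BC3 (adjusted p = 0.0486) and 0.24 ± 0.13 in BCBL1 (adjusted p = 0.374). The BC3 call is at the threshold: it held in 7 of 20 settings tried and was lost without any single BC3 array, with adjusted p from 0.0976 to 0.254.

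PDIA6, a protein disulfide isomerase that binds IRE1, stood at 11.23 and 11.44 on the BC3 DMSO arrays and at 11.67 and 11.98 on the BC3 lenalidomide arrays. In BCBL1 it stood at 11.02 and 10.86 with DMSO and at 11.06 and 10.82 with lenalidomide. The BC3 groups did not overlap, whereas in BCBL1 the treated arrays enclosed the untreated ones. The BC3 difference of 0.49 ± 0.15 did not pass (adjusted p = 0.084), nor did the difference between the lines of -0.49 ± 0.21 (adjusted p = 0.433).

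HSPA5, the master chaperone BiP and the usual readout of ER stress, gave 9.01 and 9.10 on the BC3 DMSO arrays, 9.0 and 8.89 on the BC3 lenalidomide arrays, 8.97 and 8.89 on the BCBL1 DMSO arrays and 8.94 and 9.09 on the BCBL1 lenalidomide arrays. The differences were -0.12 ± 0.12 in BC3 (95% interval from -0.37 to 0.14) and 0.08 ± 0.12 in BCBL1 (from -0.18 to 0.34), and treated and untreated arrays overlapped in BCBL1. HSP90B1, the ER form of HSP90 also named GRP94, differed by 0.02 in BC3 and 0.07 in BCBL1. The lectin chaperones CALR and CANX, the disulfide isomerase PDIA4, the co-chaperones DNAJB11, DNAJC3 and SDF2L1, the exchange factor HYOU1 and the ER stress-induced CRELD2 lay between -0.09 and 0.15 in BC3 and between -0.11 and 0.22 in BCBL1. Of the members with an ERSE or an ERSE-II shown above, 8 were tested and 0 were called by limma in either line, with a median of -0.06 in BC3 and 0.04 in BCBL1.

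In ER degradation and translocation, 0 of 4 tested members passed in either line by limma. SEC61B, a subunit of the channel through which new proteins enter the ER, had the lowest adjusted p of them in BC3 (0.26 ± 0.12, adjusted p = 0.288). EDEM1, which draws misfolded glycoproteins out of the folding cycle, differed by 0.04 in BC3 and 0.06 in BCBL1. SEL1L and SYVN1, which form the core of a ubiquitin ligase of the ER membrane, lay between -0.18 and 0.06 over both lines; SEL1L was above background on neither BC3 lenalidomide array. The sensors ATF6 and EIF2AK3 differed by -0.13 and -0.05 in BC3 and by -0.13 and 0.16 in BCBL1, with no call and no unadjusted p under 0.05.

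Of the 7 tested factors of the PERK-ATF4 pathway, DDIT4 alone passed in either line. ATF4 gave log2 levels of 13.15 and 13.07 with DMSO and 13.49 and 12.87 with lenalidomide in BC3. In BCBL1 it gave 12.76 and 12.71 with DMSO and 12.87 and 12.86 with lenalidomide. Its treated BC3 arrays were far apart and enclosed the untreated ones, and the differences were 0.07 ± 0.17 and 0.13 ± 0.17. ATF4 is controlled mainly through translation, which RNA levels do not show. DDIT3, the pro-apoptotic factor CHOP, differed by -0.02 in BC3 and -0.15 in BCBL1, and TRIB3, a pseudokinase that CHOP and ATF4 induce, by -0.08 in both. PPP1R15A, the phosphatase subunit GADD34 that reverses eIF2α phosphorylation, differed by -0.11 and 0.07, and CEBPB, a partner of ATF4, by -0.12 and 0.02. SESN2, a leucine-binding inhibitor of mTORC1, was at 6.44 and 6.71 in untreated and 6.84 and 7.01 in treated BCBL1, where the difference of 0.35 ± 0.14 did not pass (adjusted p = 0.223); in BC3 it was -0.12 ± 0.14.

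Of the 8 amino acid genes, SLC7A5 alone passed, and only in BC3. ASNS, the asparagine synthetase gene and a standard ATF4 target with the CARE shown above, gave 11.60 and 11.65 with DMSO and 11.50 and 11.50 with lenalidomide in BC3. In BCBL1 it gave 11.75 and 11.85 with DMSO and 11.70 and 11.62 with lenalidomide. The treated arrays were lower in both lines, by amounts close to the SE of 0.11 (-0.13, adjusted p = 0.635, and -0.14, adjusted p = 0.589). PHGDH and PSAT1 encode enzymes that make serine. PHGDH differed by -0.18 in BC3 and 0.14 in BCBL1. PSAT1 was above background on no BC3 array, so its response there is not known, and it differed by -0.23 in BCBL1 (adjusted p = 0.421). SHMT2 and MTHFD2, enzymes of the mitochondrial folate cycle that serine feeds, differed by -0.31 (adjusted p = 0.223) and -0.10 in BC3 and by -0.12 and 0.13 in BCBL1. SLC7A11, the cystine transporter xCT, differed by 0.07 in BC3, where it was above background on 1 of 2 arrays of each group, and by 0.31 ± 0.14 in BCBL1 (adjusted p = 0.297).

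A missed threshold does not show that a gene stayed level, so the intervals were counted. They measure the spread between technical arrays and not between cultures, so a narrow interval does not show a stable level across cultures. The 95% interval lay within 1.5-fold in either direction for 29 of the 33 members in BC3 (87.9%) and for 30 in BCBL1 (90.9%). The same held for 80.6% and 81.1% of all genes. In BC3 this count includes PSAT1, SEL1L and SLC7A11, which were not above background on every BC3 array and whose narrow intervals near the floor do not show a stable level. Over genes above background on all arrays of both groups compared, it was 26 of 30 members in BC3 (86.7%, beside 81.1% of such genes) and 30 of 33 in BCBL1 (90.9%, beside 81.9%). The exceptions were DDIT4, SLC7A5, DNAJB9 and PDIA6 in BC3 and DDIT4, SESN2 and SLC7A11 in BCBL1. When the response in BCBL1 was set against that in BC3, 0 of 33 members passed by limma and 4 had an unadjusted p under 0.05 (SLC7A5, DDIT4, SESN2 and PDIA6), while 0.495% of all genes passed.

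**Figure D3:**
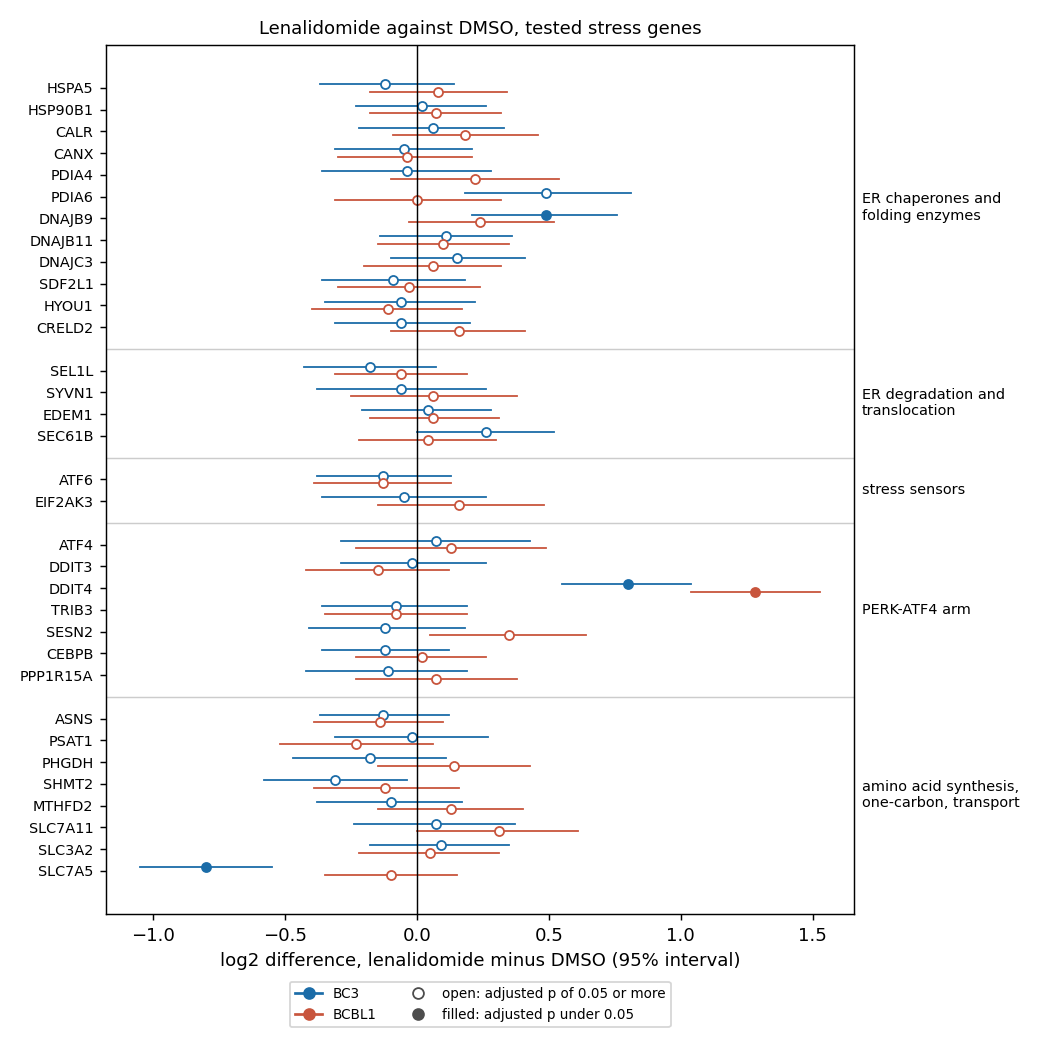
Log2 difference between lenalidomide and DMSO with its 95% interval for the 33 tested members, grouped by role (BC3 in blue, BCBL1 in red, filled points with an adjusted p under 0.05). DDIT4 stands to the right of 0 in both lines, at 0.80 and 1.28, SLC7A5 to the left in BC3, at -0.80, and 29 intervals in BC3 and 30 in BCBL1 lie within 1.5-fold.

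The labelled cell type was checked on the same arrays. Of 9 B-lineage and plasma cell markers with a named probe, 6 were above background in each BC3 group (CD79B only with DMSO, CD79A only with lenalidomide) and 7 in each BCBL1 group, with SDC1, IRF4, PRDM1, TNFRSF17 and CD38 in all 4 groups and the B cell markers MS4A1 and PAX5 in none. TNFRSF17, the plasma cell receptor BCMA, fell with lenalidomide by 0.78 in BC3 (adjusted p = 0.00296) and by 0.64 in BCBL1 (adjusted p = 0.0141). It alone passed among the 7 tested markers in each line (14.3%, beside 4.43% and 2.92% of all genes). Of the 7 differences, 3 in BC3 and 2 in BCBL1 were above 0, with ranges of -0.78 to 0.27 and -0.64 to 0.6. In BC3 the B-lineage and plasma cell markers summed to 14983 to 15149 normalized intensity units with DMSO and 11844 to 13197 with lenalidomide. In BCBL1 they summed to 10940 to 11265 and 10050 to 10693, so this sum was lower with lenalidomide in both lines. Bright markers weigh most in such a sum. TNFRSF17 was the brightest in BC3 with DMSO, at a mean log2 level of 12.61 against 11.83 with lenalidomide. The lower sum therefore does not show that the markers fell as a set. Markers of other cell types summed to 8456 to 8974 units with DMSO and 8412 to 9045 with lenalidomide in BC3. In BCBL1 they summed to 1314 to 1421 and 1372 to 1432, so their sum overlapped between treatments. Of these, CD3E fell in BC3 (-0.52, adjusted p = 0.0297).

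Other genes of the same pathways were taken from lists chosen with earlier results known. Among 31 tested ER chaperone and secretory genes, 2 rose and 2 fell in BC3 (12.9%, beside 4.43% of all genes) and 1 fell in BCBL1 (3.23%, beside 2.92%). FKBP11, an ER peptidyl-prolyl isomerase, fell by 0.70 ± 0.12 in BC3 (adjusted p = 0.0042) and by 0.97 ± 0.12 in BCBL1 (adjusted p = 0.000514). TXNDC5, a disulfide isomerase, fell in BC3 (-0.65, adjusted p = 0.00614), and SIL1, an exchange factor of HSPA5, rose there (0.48, adjusted p = 0.028). XBP1 differed by 0.16 in BC3 and 0.25 in BCBL1 (adjusted p = 0.58 and 0.334), and the files do not say which splice form its probe reads. Of 14 further ER degradation genes 0 passed in either line by limma, with 0 and 1 at an unadjusted p under 0.05. Of 10 further sensors and eIF2α regulators, 1 rose in BC3 (10%, beside 4.43%), the ER-anchored transcription factor CREB3L2 (0.49, adjusted p = 0.0388). Of 25 further genes of the ATF4 pathway 0 passed in either line, with 3 and 1 at an unadjusted p under 0.05; ATF3, a stress-induced partner of ATF4, differed by -0.21 and -0.17.

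The second comparison sets the lines against each other under DMSO. With all arrays 9 of 12 tested ER chaperones were lower in BCBL1, of which CALR and SDF2L1 stayed so whichever array was left out, and the serine synthesis genes and SLC7A5 were higher. Of the 33 tested members, 6 were higher and 13 lower in BCBL1 with all arrays. That is 57.6% in all, beside 41.0% of all genes (20.3% higher and 20.7% lower). The median was -0.15 for the members and 0.01 for all genes. The DMSO arrays used here also served as the controls of the lenalidomide comparisons. The markers of other cell types differed between the lines as well: 7 of 14 were above background in untreated BC3 and 3 in untreated BCBL1. Of the 8 that were tested, 3 were lower in BCBL1 and 1 was higher (50%, beside 41.0% of all genes), with differences from -6.17 to 0.77. EPCAM was lower in BCBL1 (-6.17, with 1 of 2 BCBL1 arrays above background), as was CD4, at least 14.8-fold. CD3D, CD8A, COL1A1, CSF1R, LYZ and NKG7 were below background in all groups. Of the plasma cell markers, TNFRSF17 and CD38 were lower (-1.98 and -1.29) and SDC1 was higher (1.68). The part of these marker differences in the results that follow was not tested.

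Of the 12 tested chaperones and folding enzymes, 9 were lower in BCBL1, 1 was higher and 2 did not pass, with a median of -0.40. With all arrays this is 83.3% called, beside 41.0% of all genes. CALR, a calcium-binding lectin that folds glycoproteins, had the largest difference of the 12. Its log2 level was 12.60 and 12.51 on the untreated BC3 arrays and 11.85 and 11.62 on the untreated BCBL1 arrays. The 2 lines did not overlap, and the difference was -0.82 ± 0.13, or 1.77-fold lower in BCBL1 (adjusted p = 0.000161). SDF2L1, a partner of DNAJB11 in the folding of client proteins, gave 11.36 and 11.53 in BC3 and 10.88 and 10.87 in BCBL1 (-0.57 ± 0.12, adjusted p = 0.00243). PDIA4 gave 8.57 and 8.34 against 7.83 and 7.97, again with no overlap (-0.55 ± 0.15, adjusted p = 0.00938).

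HYOU1, an HSP70-like exchange factor of HSPA5, and CRELD2, whose gene is induced by ER stress, were each lower (-0.44, adjusted p = 0.0164 and 0.0104). DNAJB9 and PDIA6 were lower too, at -0.41 and -0.40 (adjusted p = 0.0204 and 0.0442). The smallest called differences were those of DNAJB11, -0.31, and HSP90B1, -0.30 (adjusted p = 0.0455 and 0.0484), and neither was called when any array was left out. DNAJC3, an ER co-chaperone that also restrains eIF2α kinases, went the other way. It was at 6.94 and 6.80 in BC3 and at 7.41 and 7.56 in BCBL1, higher by 0.62 ± 0.12 (adjusted p = 0.000965). DNAJC3 was dim in BC3, and its difference ran from 0.43 to 1.04 over the settings tried. HSPA5 itself, at 9.01 and 9.10 against 8.97 and 8.89, differed by -0.13 ± 0.12 (adjusted p = 0.431), and CANX by 0.10 ± 0.12 (adjusted p = 0.544). The 8 tested members with an ERSE or an ERSE-II are all among the 12 tested chaperones, so their count is not a separate result. Of these 8, 6 were lower in BCBL1 and 0 higher, beside 20.7% of all genes lower, with a median of -0.42. The 2 that did not pass were HSPA5 and CANX. Among the chaperones without either site, PDIA4, DNAJB9 and DNAJB11 were lower too and DNAJC3 was higher. Across the settings tried, 3 to 9 of the 12 chaperones were called lower and their median lay between -0.44 and -0.31. Without 1 DMSO array the 9 fell to 4 (BC3 array a) or to 3 (BC3 array b, BCBL1 array a or BCBL1 array b), and the 6 members with an ERSE or an ERSE-II to 4, 2, 3 and 2 in that order.

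In ER degradation and translocation, EDEM1 (-0.35, adjusted p = 0.0249) and SEC61B (-0.37, adjusted p = 0.0246) were lower in BCBL1. SEL1L, the adaptor of the ligase, was higher, at 6.91 and 7.04 against 6.56 and 6.50 in BC3 (0.45 ± 0.12, adjusted p = 0.00732). In BC3 SEL1L lay near the background floor of 6.41, and its difference ran from 0.29 to 0.92 over the settings tried. Its partner SYVN1 did not pass (-0.07). EDEM1 lost its call without any 1 of the 4 DMSO arrays, SEC61B without any of them but BC3 array b, and SEL1L without BC3 array b or BCBL1 array b. ATF6 and EIF2AK3 differed by 0.19 and -0.16, without a call (2 tested, 0 with an unadjusted p under 0.05). XBP1, the factor that IRE1 activates, was lower in BCBL1 (-0.61 ± 0.12, adjusted p = 0.00139).

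In the PERK-ATF4 pathway, 2 of 7 tested members were lower in BCBL1 and 1 was higher (42.9% called, beside 41.0% of all genes). DDIT4, with the untreated values given above, was 2.61-fold lower (-1.39 ± 0.11, adjusted p = 5.4e-07). PPP1R15A gave 8.96 and 9.25 in untreated BC3 and 8.20 and 8.14 in untreated BCBL1, with no overlap, and was 1.91-fold lower (-0.94 ± 0.14, adjusted p = 0.000129). CEBPB went the other way, from 10.18 and 10.23 to 10.68 and 10.65 (0.46 ± 0.11, adjusted p = 0.0056). The called members of this pathway went in both directions, at a share close to that of all genes. The median of the tested members was -0.20. ATF4 differed by -0.37 ± 0.17 (adjusted p = 0.0929), DDIT3 by -0.20, TRIB3 by 0.24 and SESN2 by -0.15, none of which passed.

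All 8 amino acid genes had a difference above 0, and 3 passed the test (37.5%, beside 41.0% of all genes). PSAT1, the aminotransferase of the serine pathway, was not above background on any BC3 array, with log2 values of 6.34 and 6.03 under DMSO, and stood at 8.42 and 8.34 in untreated BCBL1. It was at least 3.92-fold higher in BCBL1 (2.19 ± 0.13 on the log2 scale, adjusted p = 2.97e-08). PHGDH, the dehydrogenase that opens the pathway, gave 10.42 and 10.50 in BC3 and 12.54 and 12.34 in BCBL1, higher by 1.98 ± 0.13, or 3.94-fold (adjusted p = 8.48e-08). Both serine pathway genes kept this order with lenalidomide, with PHGDH at 10.13 and 10.43 in BC3 and 12.63 and 12.53 in BCBL1. SLC7A5 was higher in untreated BCBL1 by 1.67 ± 0.11, or 3.19-fold (adjusted p = 9.62e-08). The other 5 genes of this role lay between 0.08 (SHMT2) and 0.31 (SLC7A11, adjusted p = 0.0899), with ASNS at 0.17, MTHFD2 at 0.23 and SLC3A2 at 0.11.

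**Figure D4:**
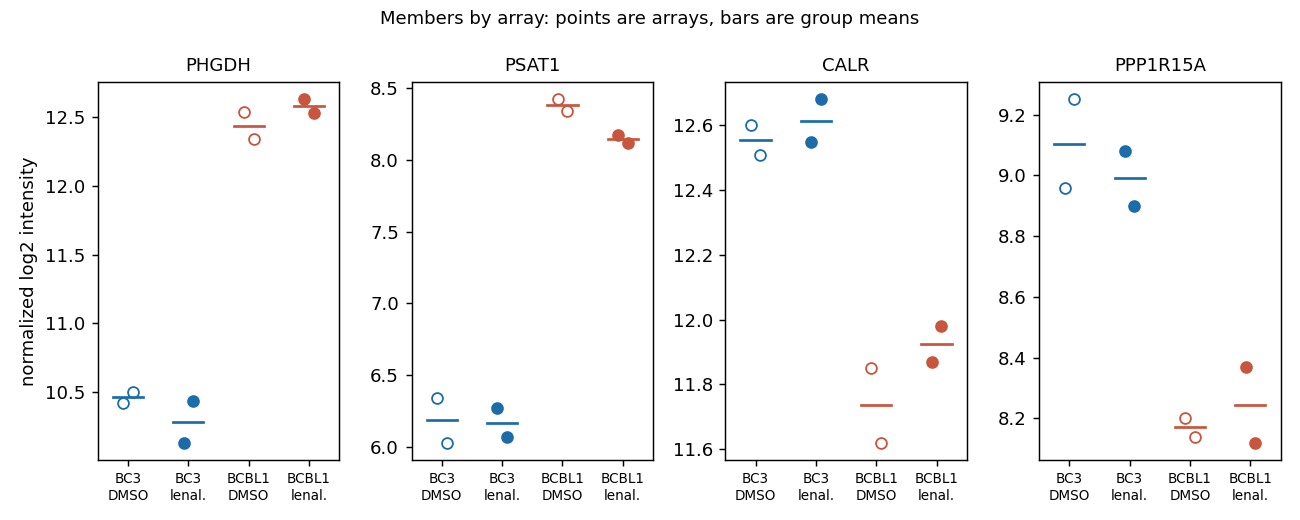
Log2 intensity of PHGDH, PSAT1, CALR and PPP1R15A on each of the 8 arrays (BC3 in blue, BCBL1 in red, open points DMSO, filled points lenalidomide, bars the mean of 2 arrays). PHGDH and PSAT1 are higher and CALR and PPP1R15A lower in BCBL1 under both treatments; PSAT1 was not above background on any BC3 array.

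**Figure D5:**
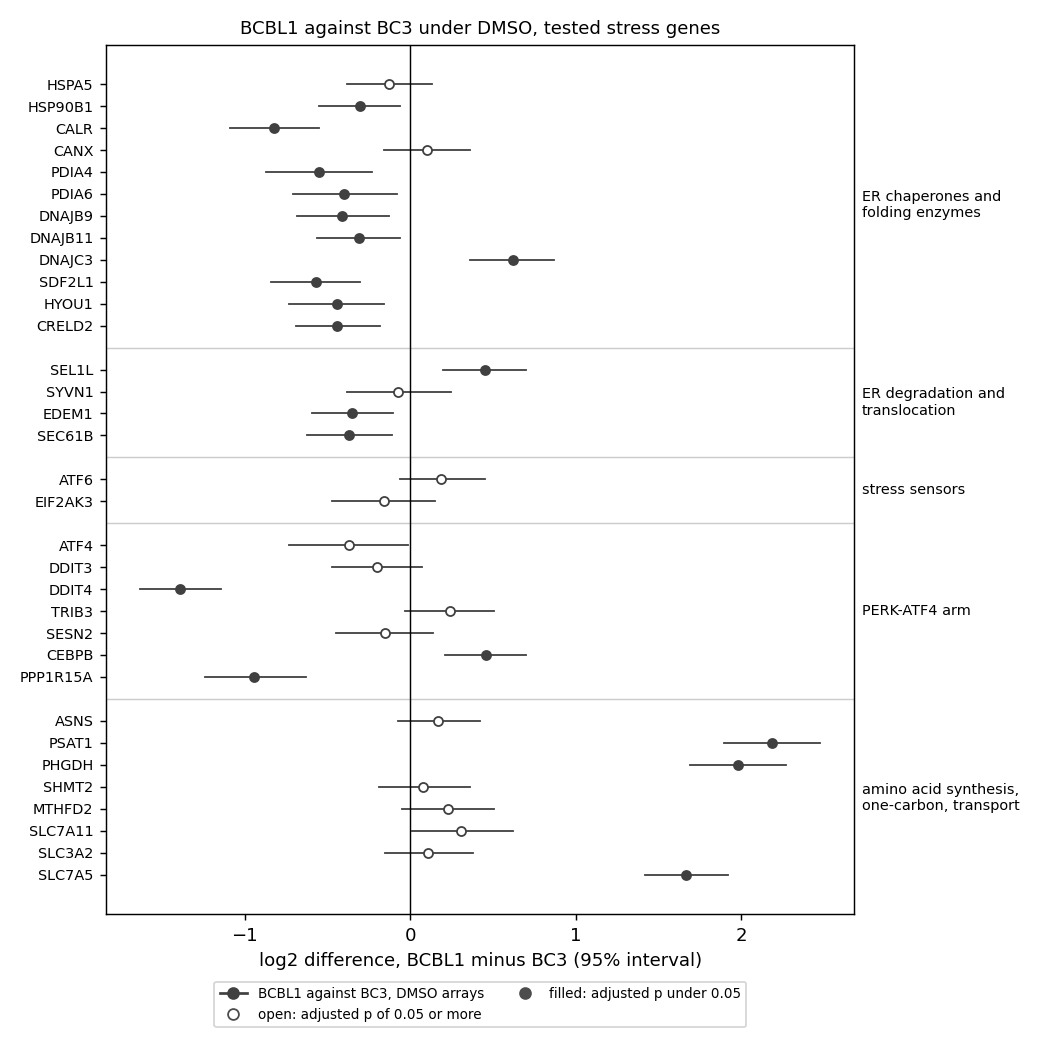
Log2 difference between untreated BCBL1 and untreated BC3 with its 95% interval for the 33 tested members, grouped by role (filled points with an adjusted p under 0.05). Of 12 chaperones, 9 lie to the left of 0 with filled points, DNAJC3 stands to the right at 0.62, and PSAT1, PHGDH and SLC7A5 stand furthest to the right.

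The calls of 9 members held in all 19 settings tried for this comparison: CALR, SDF2L1, DNAJC3, DDIT4, PPP1R15A, CEBPB, PSAT1, PHGDH and SLC7A5. Without 1 DMSO array, which leaves 1 array in its group, fewer members and also fewer of all genes were called. The share of members called was then no longer well above that of all genes, and it was below it without either BCBL1 DMSO array. The median of the members was then -0.17 or -0.08 without BC3 array a or b, and -0.14 or -0.25 without BCBL1 array a or b. The share of 57.6% of members beside 41.0% of all genes is therefore given for the full set of arrays only. Where a member had several kept probes, the brightest was used, and 6 members had others. The dimmer HYOU1 probe gave -0.23 (adjusted p = 0.169) between the lines, and the other ATF4 probes gave 0.28 and -0.02 where the brightest gave -0.37. The dimmer ASNS probe gave -0.33 and -0.32 with lenalidomide in BC3 and BCBL1 (adjusted p = 0.26 and 0.282), and the dimmer SLC3A2 probe 0.44 in BC3 (adjusted p = 0.213). A second PSAT1 probe was above background on no array.

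The wider lists differed between the lines in both directions. Of 31 tested ER chaperone and secretory genes, 3 were higher and 12 lower in BCBL1, among them SEC11C, a subunit of the signal peptidase (-2.22), TXNDC5 (-1.29) and FKBP11 (-1.28). Of 14 further ER degradation genes, 2 were higher and 5 lower, with OS9, a lectin of the degradation pathway, at -0.99, MAN1B1, an ER mannosidase, at -0.96 and NPLOC4, a cofactor of the p97 segregase, at 0.91. Of 10 further sensors and eIF2α regulators, 2 were higher and 1 lower, with CREB3L2 at -1.51 and EIF2AK2, the kinase PKR, at 0.67. Of 25 further ATF4 pathway genes, 8 were higher and 6 lower: STC2, a secreted glycoprotein, was at least 3.37-fold lower, ATF5, a factor related to ATF4, was lower (-1.80), and EIF4EBP1, a repressor of translation under mTORC1, was higher (1.80). ATF3 differed by 0.38 (adjusted p = 0.0527). The shares of these lists called were 48.4%, 50%, 30% and 56% in that order, beside 41.0% of all genes.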

How the data were processed

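RNA of 2 cell lines was measured on 2 technical arrays for each of 4 groups. The authors deposited linear intensities per probe, not normalized between arrays as judged from the values, and a table of log2 values. Each deposited log2 column ranked its probes exactly as 1 intensity column did (rank correlation 1), with a median of 4.91 and a range of 4.25 to 15.52, and its offset is not stated; the submitters' processing notes name limma. Members and lists were chosen with earlier results of these data known.

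The intensities were corrected with normexp (offset 50), quantile-normalized and taken to log2 (R 4.3.3, limma 3.58.1). The planned detection p-values were not in the table, so a probe was taken as above background at a one-sided normal p of 0.05, on a background fitted from the lower side of each array's signal mode. Of 47323 probes 1 was listed at 0 and left out, and 24097 (50.9%) were kept, those above background on both arrays of some group. A single symbol in the platform annotation was given to 30113 probes, several to 8 and none to 17201, and 30074 symbols were updated through RefSeq. The brightest kept probe stood for a gene, which left 12719 genes. Where the dimmer group was not above background, only a lower bound of the fold is given. For that bound each array of the dimmer group contributed the probe's signal or, if higher, the lowest signal of any probe above background, and the brighter group its mean.

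Differences were tested with limma (lmFit and eBayes, a mean per group, 4 residual and 8.73 prior degrees of freedom) and adjusted by Benjamini-Hochberg over all genes, at a threshold of 0.05. The fit with the lines as replicates used the 4 group means with the line as a block. It had 1 residual and 9 prior degrees of freedom, so its estimate of the spread came mostly from all genes together. All p-values are two-sided. Any member could be named; of the other lists, up to 3 called genes with the largest difference per comparison, and always XBP1 and ATF3. The script was tested on simulated data. The intensity columns carry no replicate number, and arrays are called a and b. The correlation of the deviations of same-numbered arrays was -0.076 to 0.049, so the numbers were not taken to pair them. The files name no slide or scan batch. Alternatives changed the background correction, normalization, filter, probe choice, variance model, source table and arrays used.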

Additional observations from a re-analysis of the deposited data

How the results depend on the processing

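Directions of called members did not reverse under any alternative run. With lenalidomide, DDIT4 in both lines and SLC7A5 in BC3 were called in all 20 settings (DDIT4 from 0.75 to 0.83 in BC3 and from 1.15 to 1.37 in BCBL1, SLC7A5 from -1.13 to -0.61). Leaving out 1 array at a time gave 2 to 3 called members in BC3, 1 in BCBL1, 0 in the difference of responses, 10 to 18 between the lines and 0 to 1 with the lines as replicates. With the lines as replicates, 0 members were called with an offset of 16, 0 on the authors' log2 table and 2 with median scaling, which added SLC7A5 (-0.54, adjusted p = 0.00862). On the authors' log2 table with a replicate block for the pairing of numbers, 2 members were called in BC3, 1 in BCBL1, 0 in the difference of responses and 13 between the lines, against 15 there without the block. Median scaling placed the median of all genes in BCBL1 at -0.105, and 44.6% of that line's called genes then rose, against 74.2% with quantile normalization; with the lines as replicates 58.6% rose, against 82.5%. With 2 technical arrays a group, no value covers the variation between cultures, and differences of dim members such as PSAT1 in BC3 are bounds.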

Other observations

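The cytosolic aminoacyl-tRNA synthetases, which charge tRNAs with amino acids and include many ATF4 targets, were a further list of 12 genes, 11 of them tested. With lenalidomide 0 of 11 passed in BC3 and 0 of 11 in BCBL1 by limma, with 1 at an unadjusted p under 0.05 in each line and medians of -0.12 and 0.05. Between the untreated lines, 4 were higher and 2 lower in BCBL1 (54.5% called, beside 41.0% of all genes), with a median of 0.23. IARS1, the isoleucine enzyme, was higher by 0.62 ± 0.12 and LARS1, the leucine enzyme, by 0.55 ± 0.12 (adjusted p = 0.000802 and 0.00231). NARS1, the asparagine enzyme, was lower (-0.60 ± 0.15, adjusted p = 0.00609).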
